A study of Homo sapiens with 5 samples.

Results

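The genes described here encode proteins that bring fatty acids into cells. They are the receptor CD36, the fatty acid transport proteins SLC27A2, SLC27A4, SLC27A5 and SLC27A6, the intracellular binding proteins FABP1, FABP3 and FABP5, the lipase LPL and the membrane protein CAV1. They were chosen by name, and a probe set counted if its only gene symbol was one of them. Of the 10 genes 9 had values, on 13 of the 30137 probe sets in the table, and SLC27A6 had none. The cells were HepG2, a human line from a hepatic carcinoma, given siRNA with a lipofection reagent at about 50% confluence and harvested after 3 to 4 days in medium with 25 mM glucose and 10% serum. The knockdown group comprised 3 arrays, each with a different siRNA (siRNA-1, siRNA-2 and siRNA-3, called siRNAs 1, 2 and 3 here) against LSD2, a histone H3 lysine 4 demethylase encoded by KDM1B. The control group comprised 2 arrays of cells given siRNA against GL3, a firefly luciferase sequence, and the labels call the second array a technical replicate of the first. The study asked which transcripts change in hepatic cells without LSD2, and lipid influx was the subject of its paper.

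A hepatocyte takes up fatty acids that circulate on albumin or that lipases free from lipoprotein triglyceride. CD36 binds long-chain fatty acids at the cell surface, and the transport proteins of the SLC27 family couple entry to the formation of acyl-CoA, which traps the fatty acid inside. Binding proteins of the FABP family then carry fatty acids through the cytosol to mitochondria, the endoplasmic reticulum and the nucleus. Hepatocytes normally express little CD36 and much FABP1, and hepatic CD36 is known to be higher in fatty liver.

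The deposited values were MAS5 signals on a log scale, read as log2, in which every probe set was centred on its own median over the 5 arrays. A value therefore tells how an array compared with the other arrays for the same probe set, and not how abundant a transcript was. In each probe set the middle array reads 0.00. The value of a gene was the mean of its probe sets, and a difference of 1 on this scale is 2-fold. In bulk RNA fewer cells that express a gene and less RNA per cell cannot be told apart.

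The regions upstream of 4 of these genes are shown because the results turn on them: CD36 and FABP3 were higher under every siRNA, and FABP1 and CAV1 stood on opposite sides of the control between siRNAs. Each is the 250 bases before the annotated start in RefSeq (GRCh38.p14), read 5′ to 3′ on the gene's own strand. They lie at chr7:80601957-80602206 on the plus strand for CD36 (the first of 6 annotated starts), chr1:31373077-31373326 on the minus strand for FABP3, chr2:88128063-88128312 on the minus strand for FABP1 and chr7:116524759-116525008 on the plus strand for CAV1 (the first of 3 starts). Capitals mark AGGTCA, the core bound by many nuclear receptors, GGGCGG, the GC box, and TATAAA, the TATA box, each on either strand.
CD36: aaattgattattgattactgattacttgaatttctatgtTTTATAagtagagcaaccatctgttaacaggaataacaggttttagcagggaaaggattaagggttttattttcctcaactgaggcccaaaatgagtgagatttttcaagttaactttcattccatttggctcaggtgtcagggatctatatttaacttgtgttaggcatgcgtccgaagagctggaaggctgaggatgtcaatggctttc
FABP3: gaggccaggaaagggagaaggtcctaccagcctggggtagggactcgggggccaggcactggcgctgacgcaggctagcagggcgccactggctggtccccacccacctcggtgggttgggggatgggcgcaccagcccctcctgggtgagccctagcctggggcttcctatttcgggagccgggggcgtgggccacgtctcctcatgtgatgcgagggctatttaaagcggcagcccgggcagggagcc
FABP1: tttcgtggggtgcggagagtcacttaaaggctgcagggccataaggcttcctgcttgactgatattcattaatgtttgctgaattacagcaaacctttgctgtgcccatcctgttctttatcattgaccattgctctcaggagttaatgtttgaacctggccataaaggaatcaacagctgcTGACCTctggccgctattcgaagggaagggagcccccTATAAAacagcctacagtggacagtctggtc
CAV1: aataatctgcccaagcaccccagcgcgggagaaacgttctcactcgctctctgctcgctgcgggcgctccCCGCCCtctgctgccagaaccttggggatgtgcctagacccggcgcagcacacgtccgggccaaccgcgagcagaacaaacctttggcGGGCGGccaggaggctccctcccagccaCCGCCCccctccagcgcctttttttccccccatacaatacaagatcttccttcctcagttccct
FABP1 carried AGGTCA, on the opposite strand, from 68 bases before its start, and TATAAA from 31 bases before it. It was the only one of 7 genes with a window here (14 windows in all) that had AGGTCA, which 12.1% of all 35116 RefSeq windows of this length held. LPL and FABP5 were left out of the windows, so their motifs are not known here. GGGCGG was in the windows of CAV1, SLC27A2 and SLC27A4 and in 42.6% of all windows, and TATAAA was in that of FABP1, in 2 of the 6 of CD36 and in 10.7% of all windows. In the CD36 window shown TATAAA began 211 bases before the start, on the opposite strand. The CD36 window held 37.2% G and C, against 69.2% for FABP3, 48.0% for FABP1 and 63.6% for CAV1. These matches describe the letters of the windows, and binding was not measured.

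The knockdown and the arrays were checked first. For KDM1B control arrays 1 and 2 read 1.56 and 0.78, and siRNAs 1, 2 and 3 read -1.43, -0.56 and -0.22, so all siRNAs lay below both control arrays. On average it stood at -1.90 ± 0.63 (SD, n = 3 siRNAs). Its probe sets differed in size, at -0.90 ± 0.37 for 1553150_at and -2.90 ± 1.07 for 227021_at (SD, n = 3 siRNAs). In 1553150_at siRNA 2 lay 0.08 below control array 2, and in both probe sets all siRNAs lay below both control arrays. Bacterial poly-A transcripts, added to the RNA before labelling, did not follow the groups. Across 24 of their probe sets the medians relative to control array 1 were -1.45 for control array 2 and -1.39 for siRNA 3, but 0.04 and 0.07 for siRNAs 1 and 2. The set of control array 1 with siRNAs 1 and 2, and the set of control array 2 with siRNA 3, are called spike-in sets here. The labels name no batch, and differences against the control array of the same set are given beside the others. Precision was limited by the small number of arrays.

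Of the 9 uptake genes, 2 were higher under all 3 siRNAs than on both control arrays, CD36 and FABP3, and 0 were lower. Over all genes 8.63% were higher in this sense and 10.1% lower. By probe set the count was 5 of 13, all of CD36 and FABP3, against 7.82% of all probe sets, and 0 of 13 were lower, against 9.94%. Against the control array of its own spike-in set each siRNA was higher for 4 genes, CD36, FABP3, SLC27A2 and SLC27A4 (15.4% of all genes), and lower for 1, FABP5 (18.4%). For SLC27A2 the smallest of these differences were 0.01 and 0.02, and for SLC27A4 the smallest was 0.03. Neither probe set of SLC27A2 met this criterion alone: 205768_s_at stood at -0.04 under siRNA 1 and 205769_at at -0.16 under siRNA 3. By probe set 6 of 13 were higher in this sense, and the share of all probe sets was not counted. The count of 2 was 5 without siRNA 1 and 4 without siRNA 3, and by probe set 8 without siRNA 1. The count of 0 below was 1, FABP5, without siRNA 2 or without control array 2, by gene and by probe set. Leaving out an array makes the criterion easier to meet for every gene. The shares of all genes were not counted for that case, so these higher counts are not read as results about the uptake genes.

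Among all 12893 genes limma called 0 at an adjusted p under 0.05 (0.0%), and 0 of the 9 uptake genes. Without adjustment 218 genes (1.69%) had a limma p under 0.05, and CD36 was the 1 uptake gene among them. The fit compared the 3 siRNAs with the averaged control and had 2 residual degrees of freedom. Even with the control arrays counted as separate samples, an exact permutation test of 3 arrays against 2 could not go below a two-sided p of 0.2. The genes are therefore described by their values on each array and by whether the groups overlapped.

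**Figure D1:**
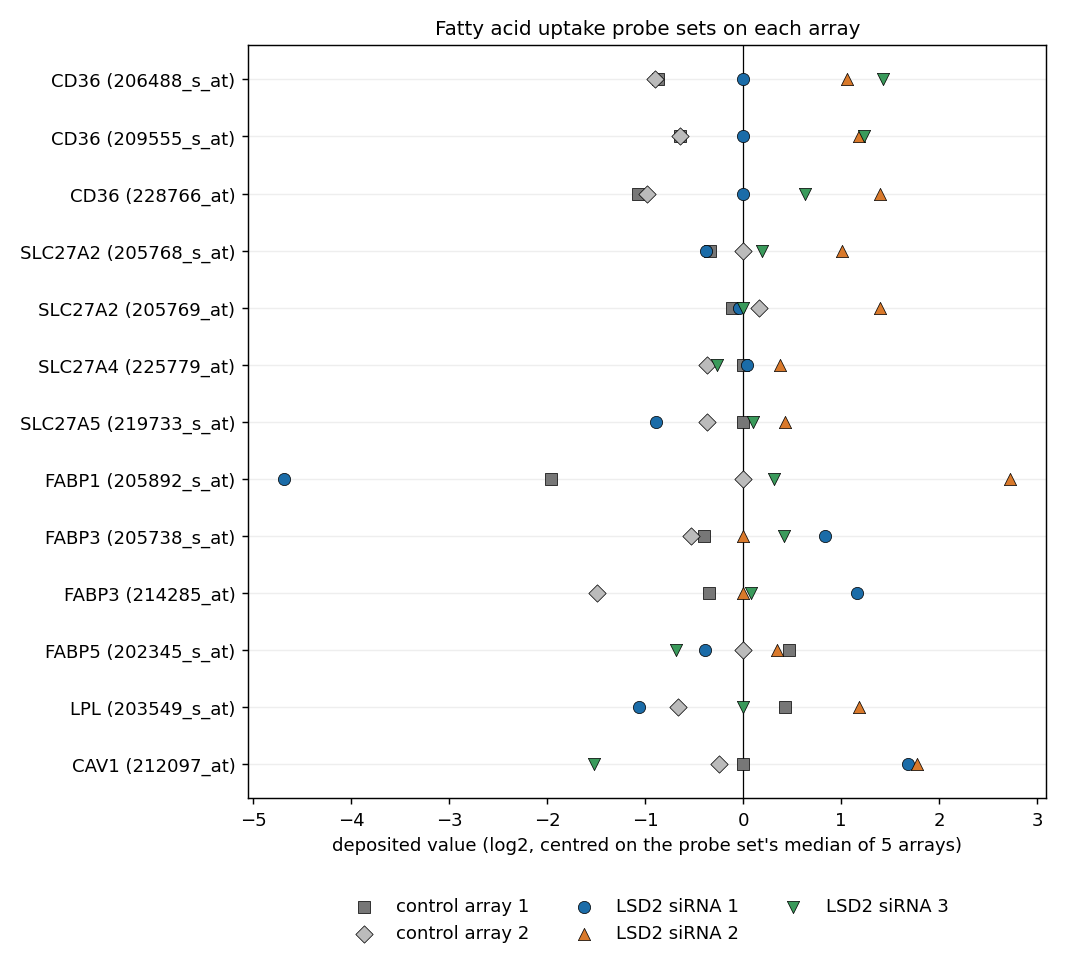
Deposited log2 values, each probe set centred on its median over the 5 arrays, for the 13 probe sets of the uptake genes; every point is 1 array. In the 3 CD36 rows the control arrays (grey) lie between -1.07 and -0.64 and the siRNA arrays between 0.00 and 1.42, while FABP1 runs from -4.68 under siRNA 1 to 2.73 under siRNA 2.

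CD36 is a class B scavenger receptor that binds long-chain fatty acids and oxidised lipoproteins. Its gene value was -0.86 and -0.84 on controls 1 and 2, and 0.00, 1.21 and 1.09 under siRNAs 1, 2 and 3. The control arrays nearly coincided, all siRNA arrays lay above them, and siRNA 1 lay nearest to them. The differences from the control were 0.85, 2.07 and 1.95, or 1.80-fold, 4.18-fold and 3.85-fold, with a mean of 1.62 ± 0.67 (SD, n = 3 siRNAs).

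In limma the standard error for CD36 was 0.62 with an adjusted p = 0.9999. Its unadjusted limma p of 0.0465 was the lowest of the 9 genes. In the order of mean differences CD36 was number 162 from the top of 12893 genes. The gap between its control arrays was 0.02, and 3.5% of genes had a smaller one. Against the control array of its own spike-in set CD36 stood at 0.86, 2.07 and 1.94 under siRNAs 1, 2 and 3. Leaving out 1 siRNA gave means from 1.40 to 2.01.

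The 3 probe sets of CD36 gave the same order of groups but not of siRNAs. Probe set 206488_s_at read -0.87 and -0.90 on the controls, and 0.00, 1.06 and 1.42 under siRNAs 1, 2 and 3. Probe set 209555_s_at read -0.64 and -0.65 on the controls, and 0.00, 1.18 and 1.23 under the siRNAs. Probe set 228766_at read -1.07 and -0.98 on the controls, and 0.00, 1.40 and 0.63 under the siRNAs. Each had both control arrays lowest and siRNA 1 in the middle. The highest array was siRNA 3 in 206488_s_at and 209555_s_at and siRNA 2 in 228766_at. Mean differences of the probe sets were 1.71 ± 0.74, 1.45 ± 0.70 and 1.70 ± 0.70 (SD, n = 3 siRNAs). Between probe sets the difference varied by 0.38 under siRNA 1, 0.59 under siRNA 2 and 0.65 under siRNA 3, which is less than the 1.21 that separated siRNA 2 from siRNA 1 in the gene value.

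**Figure D2:**
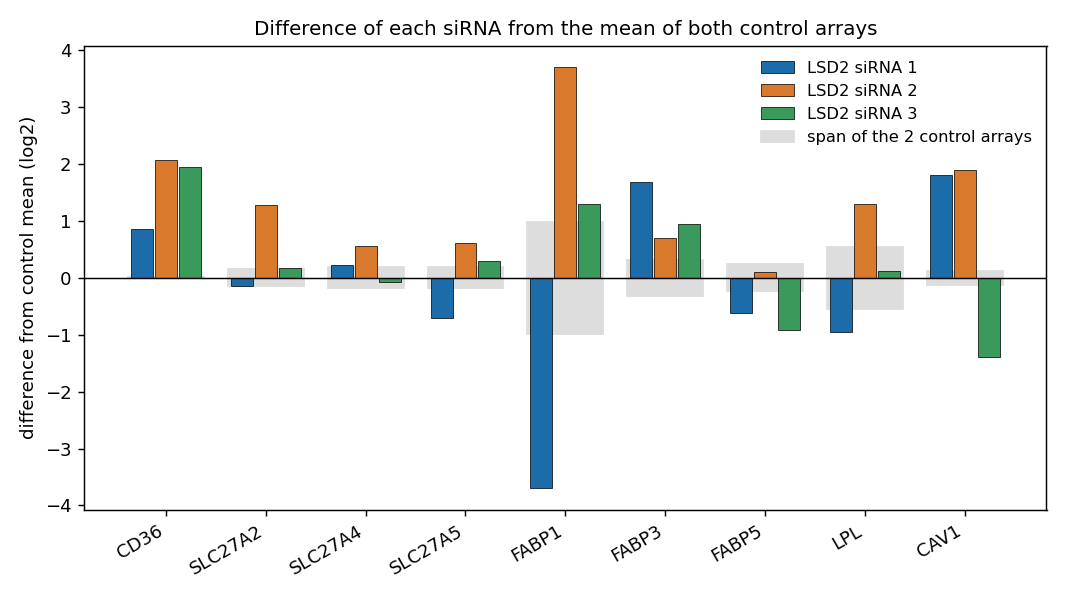
Difference of each siRNA from the mean of both control arrays (log2) for the 9 uptake genes; each bar is 1 array, and the grey box spans the 2 control arrays around their mean. CD36 and FABP3 have all 3 bars above the grey box, and FABP1 and CAV1 have bars on both sides of it.

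The transport proteins of the SLC27 family did not share 1 pattern over the siRNAs. SLC27A2, also known as FATP2, is a main fatty acid carrier and very-long-chain acyl-CoA synthetase of hepatocytes. It read -0.22 and 0.08 on controls 1 and 2, and -0.21, 1.20 and 0.10 under siRNAs 1, 2 and 3. The array of siRNA 2 stood apart, while siRNA 1 lay between the control arrays and siRNA 3 just above them. The differences were -0.14, 1.28 and 0.17, a mean of 0.44 ± 0.75 (SD, n = 3 siRNAs), with a limma adjusted p = 0.9999. The mean was 0.01 without siRNA 2, 0.72 without siRNA 1 and 0.28 without control array 1. Both probe sets showed the value of siRNA 2, at 1.18 and 1.37 above the control, but they differed for the other siRNAs. In 205768_s_at siRNA 1 lay below both control arrays and siRNA 3 above them. In 205769_at siRNAs 1 and 3 both lay between the control arrays.

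SLC27A5, or FATP5, is a liver protein that also joins coenzyme A to bile acids. It read 0.00 and -0.37 on the controls, and -0.89, 0.43 and 0.10 under siRNAs 1, 2 and 3. The array of siRNA 1 was below both control arrays and the other siRNAs were above them. Its differences were -0.70, 0.61 and 0.29, which average to 0.07 ± 0.69 (SD, n = 3 siRNAs). This mean turned to -0.21 without siRNA 2, -0.05 without siRNA 3 and -0.12 without control array 2.

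SLC27A4, or FATP4, serves fatty acid absorption in the intestine and the skin barrier. It read 0.00 and -0.37 on the controls, and 0.03, 0.38 and -0.26 under siRNAs 1, 2 and 3, so the groups overlapped. Its differences of 0.22, 0.56 and -0.08 were the narrowest spread of any uptake gene, at 0.24 ± 0.32 (SD, n = 3 siRNAs). The mean was 0.05 without control array 2, 0.07 without siRNA 2, 0.39 without siRNA 3 and 0.42 without control array 1. SLC27A1 and SLC27A3, the other family members measured, stood at -0.74, -0.02 and -1.25 and at -0.53, -0.71 and 0.21 under siRNAs 1, 2 and 3; they were named after their values were seen.

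The binding proteins differed from each other. FABP1 is the abundant fatty acid carrier of the hepatocyte cytosol. It read -1.96 and 0.00 on controls 1 and 2, and -4.68, 2.73 and 0.32 under siRNAs 1, 2 and 3. The array of siRNA 1 was far below both control arrays, siRNA 2 far above, and siRNA 3 just above control array 2. The differences of -3.70, 3.70 and 1.29 correspond to 0.0769, 13.0 and 2.45 times the control, and their mean of 0.43 ± 3.78 (SD, n = 3 siRNAs) describes none of the arrays.

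FABP1 rests on 1 probe set, and its control arrays differed by 1.96, more than those of 96.6% of genes. Under siRNA 1 it was number 33 from the bottom of the 12893 genes and under siRNA 2 number 24 from the top. Its mean turned to -1.20 without siRNA 2 and to -0.55 without control array 1. The median of the hepatocyte markers was also lowest under siRNA 1. It was -0.41, 0.60 and 0.61 under siRNAs 1, 2 and 3, over the 9 of 10 listed markers with values. Their levels are unknown. Of the 9, 6 were below both control arrays under siRNA 1 (40.0% of all genes). Above both were 6 under siRNA 2 (38.1% of all genes) and 9 under siRNA 3 (35.2%). ALB, the albumin gene, stood at -2.02, 3.03 and 2.69 and TTR, the transthyretin gene, at -1.65, 3.16 and 0.39. Under siRNA 1 2 of the 9 were above the control mean, TAT at 0.40 and SERPINA1 at 0.06. TAT stood at 0.29 and 0.50 under siRNAs 2 and 3, so siRNA 1 was not its lowest. AFP stood at -0.39, -0.33 and 0.22. These markers were named after their values were seen. The part of the marker differences in the FABP1 values was not tested.

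FABP3, the binding protein of heart and skeletal muscle, was higher under every siRNA. It read -0.37 and -1.01 on the controls, and 0.998, 0.00 and 0.25 under siRNAs 1, 2 and 3. All siRNA arrays lay above both control arrays, and siRNA 1, the lowest for CD36, was the highest here. The differences were 1.69, 0.69 and 0.94, with a mean of 1.11 ± 0.52 (SD, n = 3 siRNAs) and a limma adjusted p = 0.9999.

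The probe sets of FABP3 differed in their control arrays. Probe set 205738_s_at read -0.40 and -0.54 on the controls, and 0.84, 0.00 and 0.42 under siRNAs 1, 2 and 3. Probe set 214285_at read -0.35 and -1.49 on the controls, and 1.16, 0.00 and 0.08 under the siRNAs. In both the groups were separate and the siRNAs kept their order. The step from the highest control array to siRNA 2, the lowest siRNA, was 0.37 in the gene value, smaller than the 0.64 between the control arrays. Against the control array of its spike-in set FABP3 stood at 1.37, 0.37 and 1.26.

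FABP5, the binding protein first described in epidermis, was the 1 uptake gene with a mean below the control. It read 0.47 and 0.00 on the controls, and -0.39, 0.34 and -0.68 under siRNAs 1, 2 and 3. The arrays of siRNAs 1 and 3 lay below both control arrays and siRNA 2 between them. The differences were -0.62, 0.11 and -0.92, with a mean of -0.48 ± 0.53 (SD, n = 3 siRNAs) and a limma adjusted p = 0.9999. The mean was -0.24 without control array 1, -0.26 without siRNA 3 and -0.77 without siRNA 2. Against the control array of its set it stood at -0.86, -0.13 and -0.68.

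LPL encodes the lipase that frees fatty acids from circulating lipoproteins and is made mostly outside the liver. It read 0.43 and -0.66 on controls 1 and 2, and -1.06, 1.18 and 0.00 under siRNAs 1, 2 and 3. The array of siRNA 1 was lowest, siRNA 2 highest, and siRNA 3 between the control arrays. Its differences were -0.94, 1.29 and 0.12, and its control arrays differed by 1.10, more than those of 90.9% of genes. The mean of 0.16 ± 1.12 (SD, n = 3 siRNAs) turned to -0.03 against the control array of each set, to -0.41 without siRNA 2 and to -0.39 without control array 2.

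**Figure D3:**
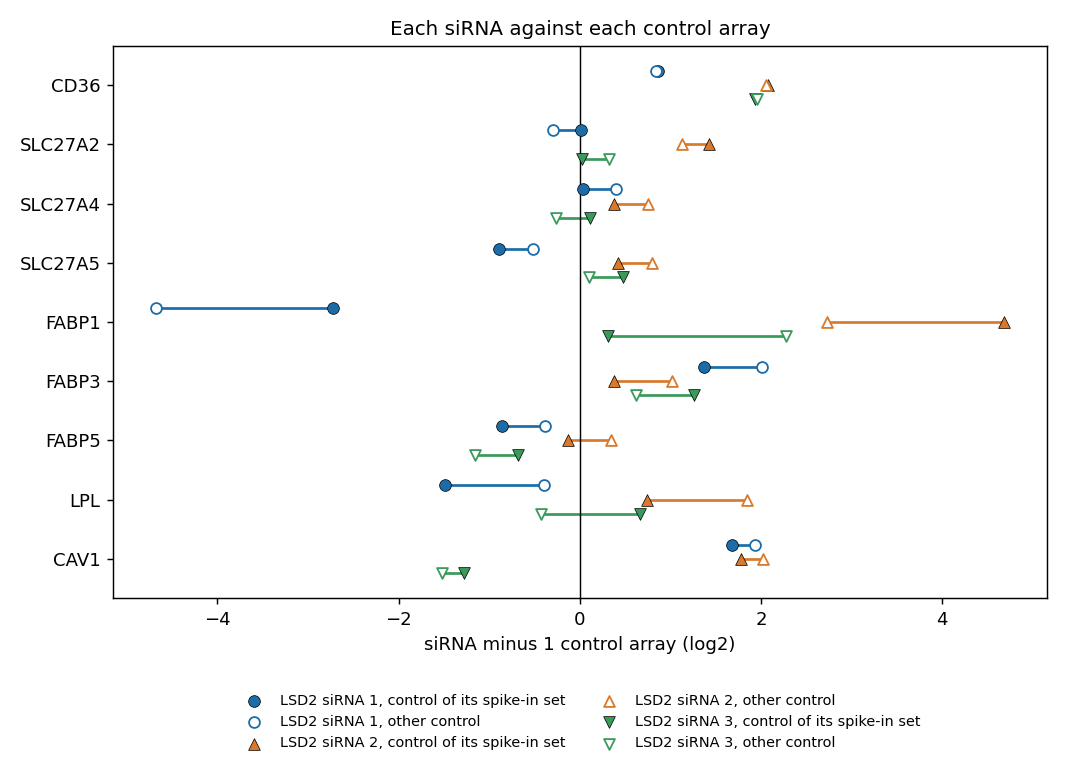
Each siRNA minus each control array (log2) for the 9 uptake genes: filled points use the control array of the same spike-in set, open points the other control array, and the line joins them. For CD36 the filled and open points almost coincide (0.86 and 0.84 under siRNA 1), whereas for LPL under siRNA 3 they lie on both sides of 0, at 0.66 and -0.43.

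CAV1, the main coat protein of caveolae, the small pits of the plasma membrane, split the siRNAs. It read 0.00 and -0.24 on the controls, and 1.69, 1.78 and -1.52 under siRNAs 1, 2 and 3. The control arrays lay close together, siRNAs 1 and 2 well above them and siRNA 3 well below. The differences were 1.81, 1.90 and -1.40, a mean of 0.77 ± 1.88 (SD, n = 3 siRNAs) with a limma adjusted p = 0.9999. The mean was 1.85 without siRNA 3, 0.25 without siRNA 1 and 0.21 without siRNA 2. Against the control array of its spike-in set CAV1 stood at 1.69, 1.78 and -1.27, so siRNA 3 was also below the control of its own set. CAV1 rests on 1 probe set.

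Other caveola genes were on a list of 10, of which 8 were measured. Of the 8, 0 were above both control arrays under all siRNAs (8.63% of all genes) and 0 below (10.1%). Among them limma called 0 (0.0% of all genes). CAV2, the partner of CAV1 in the caveolar coat, stood at 0.87, 0.78 and -2.85 under siRNAs 1, 2 and 3. EHD2, an ATPase at the caveolar neck, stood at 1.49, -0.27 and -2.68. CAVIN1, a coat component needed to form caveolae, stood at 1.43, 0.74 and -0.37. Its relatives CAVIN2 and CAVIN4 stood at 2.67, 0.07 and -0.05 and at 0.07, 0.53 and -1.21. PACSIN2, a membrane-bending protein, stood at 0.01, -0.50 and 0.17, with siRNA 3 the highest. Under siRNA 3 4 of the 8 were below both control arrays (33.9% of all genes) and 2 above (35.2%). CAV2 shared the split of CAV1, above both control arrays under siRNAs 1 and 2 and below both under siRNA 3, as 4.28% of all genes did. The flotillin genes FLOT1 and FLOT2, which mark other membrane domains, stayed within 0.39 of the control mean under each siRNA. Their control arrays were 0.54 and 0.77 apart. These genes were named after their values were seen.

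Markers of fibroblasts or stellate cells, of which 5 of 7 were measured, had medians of 1.30, 0.48 and -0.84 under siRNAs 1, 2 and 3. They did not share 1 direction: 2 of the 5, DCN and ACTA2, were above both control arrays under every siRNA (8.63% of all genes) and 1, LUM, below (10.1%). DCN, the decorin gene, stood at 1.10, 0.48 and 1.51 and the actin gene ACTA2 at 1.83, 0.76 and 0.34. LUM, the lumican gene, stood at -2.07, -0.32 and -1.48. The collagen gene COL1A1 stood at 3.32, 1.27 and -0.84 and the receptor gene PDGFRB at 1.30, -2.54 and -2.27, which completes the 5. Their part in the CAV1 values was not tested, and because levels are not in the values it cannot be said which markers were near 0. Of the endothelial and adipocyte markers 1 of 6 each had values, and of the macrophage markers 2 of 6. PECAM1 stood at -0.01, -1.07 and 0.10 and ADIPOQ at 1.59, 1.59 and -0.48. The macrophage markers were CD14, at 1.03, 2.45 and 1.36, and PTPRC, at 0.32, 0.23 and -0.38. HepG2 is a single cell line, so these markers are read as genes and not as shares of cell types.

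**Figure D4:**
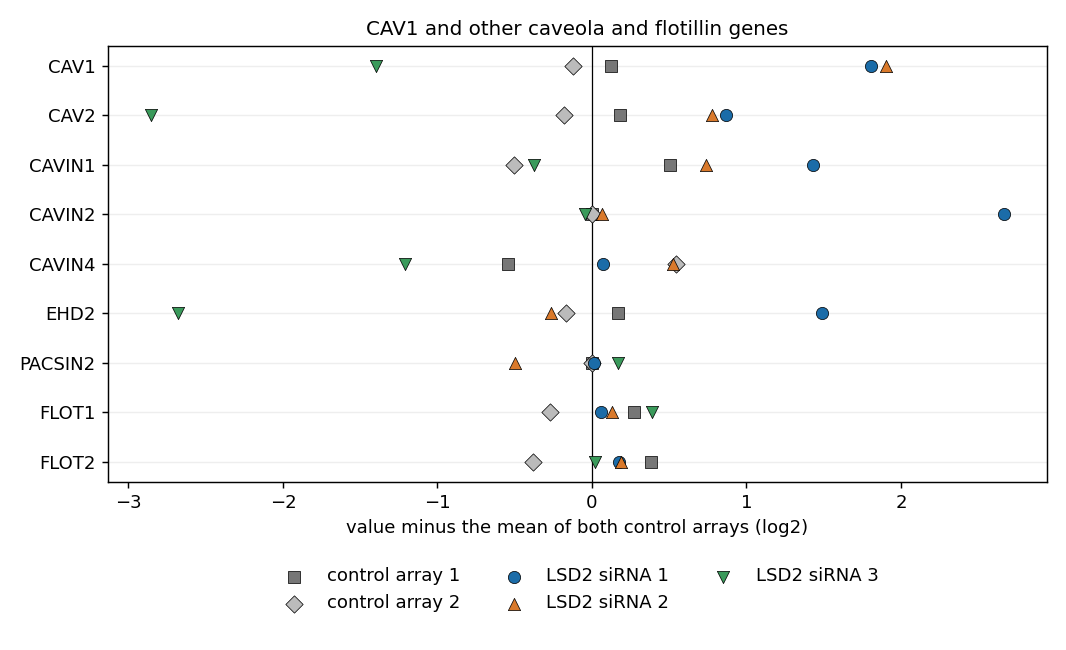
CAV1 and the 8 measured genes of the caveola and flotillin list, as log2 values minus the mean of both control arrays; each point is 1 array. CAV1, CAV2 and EHD2 have siRNA 3 far to the left, at -1.40, -2.85 and -2.68. The siRNA points of FLOT1 and FLOT2 stay within 0.39 of the control mean.

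Across the 9 genes the arrays of the siRNAs did not read alike. Each siRNA had 1 array, so its sequence, the culture and the array cannot be told apart. The median difference was -0.14 under siRNA 1, 1.28 under siRNA 2 and 0.17 under siRNA 3, where the medians over all genes were -0.04, 0.03 and 0.01. Under siRNA 2 8 of the 9 were above both control arrays (38.1% of all genes) and 0 below (37.1%). Under siRNA 1 4 were above (32.2%) and 4 below (40.0%), and under siRNA 3 5 were above (35.2%) and 2 below (33.9%). Among the siRNAs, siRNA 2 was the highest for 8 of the 9 genes, all but FABP3, and for 35.0% of all genes. For siRNA 1 it was 1 of 9, FABP3 (29.8% of all genes), and for siRNA 3 0 of 9 (35.2%). The lowest siRNA was siRNA 1 for 5 of the 9, CD36, FABP1, SLC27A2, SLC27A5 and LPL (37.2% of all genes), siRNA 3 for FABP5, SLC27A4 and CAV1 (31.1%) and siRNA 2 for FABP3 (31.8%). The medians of the hepatocyte markers, -0.41, 0.60 and 0.61 under siRNAs 1, 2 and 3, were lowest under siRNA 1 as well, and their part in the values of these genes was not tested.

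Differences beyond 2-fold from both control arrays were counted for each siRNA. Under siRNA 2 they were found on the higher side for CD36, FABP1, SLC27A2 and CAV1, 4 of 9 against 4.19% of all genes, and on the lower side for 0 of 9 against 5.11%. Under siRNA 1 FABP3 and CAV1 were higher, 2 of 9 against 2.8%, and FABP1 lower, 1 of 9 against 4.03%. Under siRNA 3 CD36 was higher, 1 of 9 against 2.68%, and CAV1 lower, 1 of 9 against 3.8%. The SD over the siRNAs had a median of 0.69 over the 9 genes and 0.39 over all genes.

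Against the control array of the same spike-in set the medians over the 9 genes were 0.01, 0.75 and 0.32 under siRNAs 1, 2 and 3. FABP1 and SLC27A5 had siRNA 1 below both control arrays and the other siRNAs above them, 2 of 9, as 6.19% of all genes did. CAV1 was the 1 uptake gene with the split between siRNA 3 and the others. Only CD36 and FABP3 thus had the same sign with every siRNA against each control array.

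Genes around fatty acid uptake were taken from further lists, and limma called 0 members of each (0.0% of all genes). Of the lipoprotein lipase list 11 of 14 were measured, 3 were above both control arrays under all 3 siRNAs (8.63% of all genes) and 0 below (10.1%). ANGPTL4, an inhibitor of LPL, stood at 1.09, 0.60 and 0.57 under siRNAs 1, 2 and 3. APOC3, which slows the clearance of triglyceride-rich particles, stood at 0.58, 1.30 and 2.68. APOA5, which speeds it, stood at 0.86, 1.02 and 1.66. The list's median mean difference was 0.52, beside -0.02 over all genes. By siRNA its medians were 0.38, 0.90 and 0.57 under siRNAs 1, 2 and 3. Against the control array of the same spike-in set they were -0.16, 0.67 and 0.89, so under siRNA 1 the sign depended on the control.

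Among targets of PPAR, the nuclear receptor family that binds fatty acids, 8 of 14 were measured, with 2 above and 1 below both control arrays under every siRNA, against 8.63% and 10.1% of all genes. CIDEC, a lipid droplet protein, stood at 0.25, 1.33 and 1.55 under siRNAs 1, 2 and 3. ACADVL, the first enzyme of long-chain oxidation in mitochondria, stood at 0.73, 1.37 and 0.57. PLIN2, the droplet coat protein that commonly rises with stored lipid, stood at -0.18, -0.38 and -0.24, with control arrays 0.14 apart. The list's median mean difference was 0.55. By siRNA its medians were -9.2e-05, 0.98 and 0.61 under siRNAs 1, 2 and 3, so under siRNA 1 the list as a whole was not higher.

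Of 17 regulators of uptake genes 13 were measured, with 1 above both control arrays under every siRNA and 0 below. Over all genes the shares were 8.63% and 10.1%, so 1 of 13 is near the background. RXRA, the common partner of PPAR and LXR receptors, stood at 0.57, 0.68 and 0.17 under siRNAs 1, 2 and 3. PPARA stood at -0.54, 0.51 and 0.55 and PPARG at 0.53, 0.60 and -1.14, so neither receptor gene had 1 sign across the siRNAs; both were named after their values were seen. The list's median mean difference was -0.003.

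Of 10 genes for acyl-CoA synthesis and binding 8 were measured, with 1 above and 1 below both control arrays under every siRNA, near the 8.63% and 10.1% of all genes. ACSL5, an acyl-CoA synthetase of mitochondria and endoplasmic reticulum, stood at 0.88, 0.998 and 0.56. ACBD3, a Golgi protein with an acyl-CoA binding domain, stood at -0.36, -0.32 and -0.36, with control arrays 0.45 apart. All 9 genes listed around the acylation, surface sorting and signalling of CD36 were measured. Of these 1 was above (8.63% of all genes) and 0 below (10.1%), with a median mean difference of 0.18. The 1 was LYN, a kinase in CD36 signalling, at 0.54, 0.30 and 0.28. Of 12 further relatives of the uptake genes 6 were measured, with a median mean difference of 0.17. Of these 6, 0 were above (8.63% of all genes) and 0 below (10.1%).

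The genes most like CD36 were those with the smallest Euclidean distance over the 5 arrays, each value taken from the control mean. They were MASP2, a protease of the lectin pathway of complement, at a distance of 0.33, the matrix protein gene ECM2 at 0.38, KLB at 0.55, HEATR4 at 0.60 and RBP2 at 0.63. KLB encodes beta-klotho, the hepatic co-receptor for FGF19 and FGF21, and stood at 0.98, 1.53 and 1.86 under siRNAs 1, 2 and 3. MASP2 stood at 0.78, 2.04 and 1.94, with control arrays 0.43 apart. RBP2, a cellular retinol binding protein of the same protein family as the FABPs, stood at 0.77, 2.05 and 1.56. None of these 5 genes passed the limma test.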

How the data were processed

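Expression in HepG2 cells was read on 5 GeneChip arrays after 3′ in vitro transcription labelling. The submitters' processing notes name MAS5 as the summary method. The deposited table was taken to hold log2 values, as it ran from -7.05 to 7.47, although no source used here gives the base. All 30137 probe sets had a median of exactly 0 over the arrays, so levels, signal over background and detection are unknown. Of the probe sets 24151 had 1 symbol, 1175 several and 4753 none in the platform annotation, and 58 were control probe sets. The genome build behind the annotation is not given.

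A gene's value was the mean of its probe sets, over 12893 genes. The control arrays were averaged to 1 sample, because the labels call the second a technical replicate. The model was limma 3.58.1 (lmFit, eBayes; R 4.3.3), two-sided, with Benjamini-Hochberg adjustment over all genes at 0.05. It takes the spread of the single control to equal that of the siRNAs. The p-values of this model measure the spread between the 3 siRNA arrays, and the gap between the control arrays does not enter them. That spread may be partly technical, as nothing states that cultures were separate. Tables and plots used pandas 2.3.3 and matplotlib 3.10.9 (Python 3.11.15).

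The genes, the 7 pathway lists, the 5 marker lists and the tests were chosen with earlier results of these data known. Text names the uptake genes, KDM1B, up to 3 genes per pathway list with the largest weakest siRNA among those with all siRNAs on 1 side of both control arrays, and the 5 genes nearest to CD36. Others are stated as named after their values were seen.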

Additional observations from a re-analysis of the deposited data

How the results depend on the processing

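The settings tried were separate control arrays, the spike-in set as a block or each siRNA against the control array of its set, the title number as a replicate block, each array left out, quantile normalization, median centring, 1 probe set per gene by suffix, the median of probe sets, a robust variance model and genes with control arrays under 0.5 apart. The comparison with the control array of each set is a value without a test. In the other settings limma called 0 of all genes, its lowest adjusted p = 0.182, and 86 to 707 genes had an unadjusted p under 0.05. Title numbers do not pair these arrays, since those of the siRNAs name different sequences and the second control is a technical replicate (correlations of deviations across genes 0.10 and -0.05). With the replicate block KDM1B stood at -2.16, and SLC27A5 turned to -0.046.

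CD36, FABP3, SLC27A2, SLC27A4, FABP5, CAV1 and KDM1B kept the sign of their mean difference in every setting that gave a value, though not its size. Separate control arrays, median centring, the robust variance model and the control gap filter cannot change a mean difference here. For CD36, FABP3 and KDM1B leaving out an array could not turn the sign either, as all siRNAs lay on 1 side of both control arrays. With 1 array left out SLC27A2 ranged from 0.01 (without siRNA 2) to 0.72 (without siRNA 1) and SLC27A4 from 0.05 to 0.42 (without control arrays 2 and 1). CAV1 ranged from 0.21 (without siRNA 2) to 1.85 (without siRNA 3) and FABP5 from -0.77 (without siRNA 2) to -0.24 (without control array 1). With the spike-in set as a block CAV1 stood at 0.44, FABP1 at 0.70 and LPL at 0.07. With 1 array left out FABP1 ranged from -1.20 to 2.50, turning below 0 without siRNA 2 and, at -0.55, without control array 1. SLC27A5 ranged from -0.21 to 0.45, turning below 0 without siRNA 2, without siRNA 3 (-0.046) and without control array 2 (-0.12). LPL ranged from -0.41 to 0.70, turning below 0 without siRNA 2 and, at -0.39, without control array 2, and stood at -0.027 against the control array of each set. The cause of these turns was not tested. The median over the 9 genes ranged from 0.01 without siRNA 2 to 0.70 without siRNA 1, around 0.43 with all arrays. The count of uptake genes with all siRNAs above both control arrays was 4 against the control array of each set (15.4% of all genes). It was between 2 and 5 with 1 array left out. Among genes with control arrays under 0.5 apart it was 1, CD36, and the share of all such genes was not counted. That filter removes FABP3, FABP1 and LPL, with control arrays 0.64, 1.96 and 1.10 apart, so FABP3 left the count without a change in its values. By probe set the count above both was 6 against the control array of each set (share of all probe sets not counted) and between 5 and 8 with 1 array left out. The count below both was 1 against the control array of each set, by gene and by probe set, and between 0 and 1 with 1 array left out. With an array left out the criterion is looser for every gene, and the shares of all genes were not counted. Block settings and the variance model give no such count. Signal over background is unknown, so dim probe sets could not be recognised.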
